A study of Rattus norvegicus with 6 samples.

Results

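The oxidative phosphorylation subunits are the nuclear-encoded proteins of the 5 enzyme complexes in the inner mitochondrial membrane. Members were taken by gene symbol alone, with no use of measured values, as every array probe set (a group of probes that reads 1 transcript) annotated to a single symbol that begins with Ndufa, Ndufb, Ndufc, Ndufs, Ndufv, Uqcr, Cox4 to Cox8 or Atp5, or that is Sdha, Sdhb, Sdhc or Sdhd. Complex I assembly factors (Ndufaf) were left out. This gave 89 probe sets for 80 genes, of 14217 genes that had a probe set of their own. Complex I had 36 genes, complex II 4, complex III 7, complex IV 17 and complex V 16.

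RNA was taken from the liver of 6 male BrlHan:WIST@Jcl(GALAS) rats and hybridised to Affymetrix rat expression arrays, with 1 array per animal. The 3 animals of the control group ate a powdered diet without the test compound, and the 3 treated animals ate a diet with epsilon-momfluorothrin, a pyrethroid insecticide, for 2 weeks. Purchase was at an age of 4 weeks, 1 week of quarantine followed, and the labels put the age of all 6 at 7 weeks. The labels give the dietary dose as 3000 ppm in one place and as 5000 ppm in another, so the treated group is named here without a dose.

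Complex I (NADH dehydrogenase) and complex II (succinate dehydrogenase) pass electrons from NADH and succinate to ubiquinone. Complex III (the cytochrome bc1 complex) passes them on to cytochrome c, and complex IV (cytochrome c oxidase) passes them to oxygen. Complexes I, III and IV pump protons out of the matrix, and complex V (ATP synthase) makes ATP as protons flow back. Most subunits are encoded in the nucleus and the catalytic core of several complexes in mitochondrial DNA, and hepatocytes are rich in mitochondria.

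The values are MAS5 signals, linear intensities that had been scaled so that the trimmed mean of every array was close to 100. Medians of the arrays were 27.0 to 29.4 in the control group and 23.1 to 26.5 in the treated group, so a scaling to equal medians moves every treated value up. Over 15778 probe sets kept by a filter on low signals, arrays correlated at r = 0.964 to 0.974 within groups and 0.958 to 0.971 between them. Hepatocyte markers were bright on all 6 arrays (Alb, the albumin gene, at 8412 to 11178), and none of the 6 striated muscle markers measured exceeded the median of any array. A signal also depends on how well the probes of a probe set bind, so no probe set's level is set against that of another. In a piece of liver, fewer cells of a type and less RNA per cell cannot be told apart.

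Transcripts of the 5 complexes differed little between the groups. Of the 80 genes, 73 were tested, and each of these was brighter than the array median on all 6 arrays, so none entered through 1 group alone. No member passed the threshold of 0.05 on the adjusted p in limma in either direction, where 18 of 9200 genes tested (0.196%) were higher and 2 (0.0217%) lower. At an unadjusted p under 0.05 in limma, 7 members were higher (9.59%, against 6.05% of all genes tested) and 0 lower (against 6.18%). The 7 were Atp5if1, Sdhb, Uqcrc1, Ndufb5, Cox5a, Ndufa9 and Atp5po. This count was 1 without control replicate 1, 4 without control replicate 2, 3 without treated replicate 2, 1 without treated replicate 3 and 2 with a variance model that has no intensity trend. In these fits 4.21% to 5.35% of all genes tested were higher. The count of members also followed the scaling, with 4 higher and 1 lower under quantile normalization and 22 higher and 0 lower with median centring. So did that of all 9200 genes tested, with 6.35% higher and 464 genes lower under quantile normalization, and 15.7% higher and 136 genes lower with median centring.

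The log2 difference, treated minus control, had a median of 0.05 over the 73 members and -0.01 over all genes tested. It was above 0 for 46 of the 73 members (63.0%) and for 47.5% of all genes. All 3 treated arrays stood above all 3 control arrays for 16 members (21.9%, against 9.04% of all genes) and below them for 1 member, Ndufa1 (1.37%, against 9.23%). These shares were not tested against the background, because members of a complex are not independent of each other. Leaving out 1 array gave medians from 0.02 with 39 members above 0 (without control replicate 1) to 0.06 with 50 above 0 (without treated replicate 2). With quantile normalization the median was 0.01 and 37 members were above 0, and with median centring, which moved the median of all genes tested from -0.01 to 0.16, the members' median was 0.22 and all 73 were above 0. Relative to the median of all genes, the members stood 0.06 higher as reported and 0.0045 higher with quantile normalization. Median centring moves both medians alike, so it could not change the 0.06.

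At the deposited scaling most intervals were narrow. For 70 of the 73 members (95.9%) the 95% interval of the log2 difference lay within a 1.5-fold change in either direction, and for 32 (43.8%) within a 1.2-fold change. Over all genes tested the shares were 63.6% and 7.11%. These bounds depend on the scaling and the variance model: with median centring 59 members lay within 1.5-fold and 0 within 1.2-fold, with quantile normalization 71 and 41, and without an intensity trend 70 and 8. With 1 array left out, 70 or 71 lay within 1.5-fold and 19 to 27 within 1.2-fold. The median SE of the log2 difference was 0.08 for the members and 0.15 for all genes tested, and the members were brighter, with a median signal of 1289 against 123. The 3 members whose interval reached beyond 1.5-fold were Atp5if1, Cox5a and the pseudogene Cox6c-ps1, all with signals under 200 on every array.

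**Figure D1:**
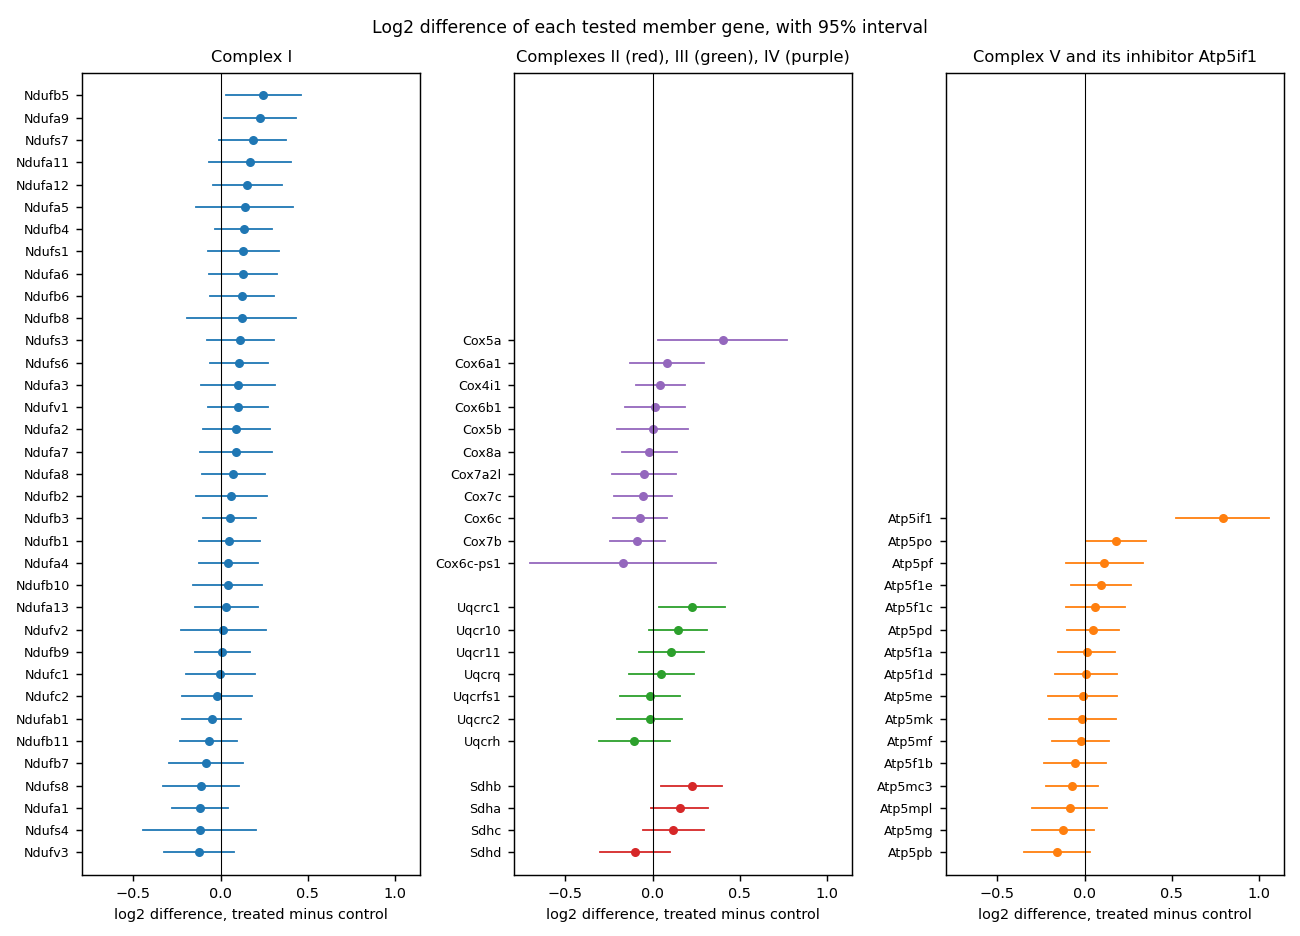
Log2 difference (treated minus control) of the 73 tested member genes, by complex, as a point with its 95% interval from the limma fit with 3 arrays per group. All points but 2 lie between -0.17 and 0.24, and the others are Cox5a at 0.40 and Atp5if1 at 0.79.

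The medians of the log2 difference by complex were 0.07 for complex I (35 genes tested), 0.14 for complex II (4), 0.05 for complex III (7), -0.02 for complex IV (11) and -0.0012 for complex V (16). With median centring those of complexes IV and V changed sign, to 0.15 and 0.17. Leaving out 1 array gave medians of -0.0011 (without control replicate 1) to 0.10 for complex III, -0.05 to 0.0052 (without control replicate 3) for complex IV and -0.04 (without control replicate 1) to 0.04 (without control replicate 2) for complex V, so the sign of these 3 medians rests on single arrays. The order II, I, III, V, IV was the same under 13 of 14 other settings. Some of these could not change it: median centring moves every median alike, and the variance model and the replicate block leave the medians as they are. Without treated replicate 2 complex III, at 0.10, stood above complex I, at 0.08. Single genes ran from -0.12 to 0.24 in complex I and from -0.10 to 0.22 in complex II. No test between complexes was made, since genes of a complex are not replicates.

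The 6 arrays can be read one by one through the median of gene-centred log2 signals (each gene's log2 signal minus its own mean over the 6 arrays). For complex I the control arrays gave -0.08, -0.02 and -0.0013 and the treated arrays 0.01, 0.01 and 0.07, each in the order of their replicate numbers. For complex II the control arrays gave -0.11, -0.05 and -0.0088 and the treated arrays 0.07, 0.05 and 0.08. In both complexes every treated array lay above every control array, and control replicate 1 was the lowest. The array values were taken at the deposited scaling only. In complex I the groups were close, with control replicate 3 at -0.0013 and treated replicate 2 at 0.01. Quantile normalization lowered the median log2 difference of complex I from 0.07 to 0.03. For complex III the values were -0.11, 0.03 and 0.02 against 0.08, -0.06 and 0.09, for complex IV -0.03, 0.05 and 0.03 against -0.01, -0.02 and -0.0021, and for complex V -0.08, 0.01 and 0.01 against 0.01, -0.04 and 0.03. The groups overlapped in complexes III, IV and V. Control replicate 1 was the lowest array in all 5 complexes, while the median over all 9200 genes was 0.0057 on that array and between -0.0053 and 0.02 on the 6.

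**Figure D2:**
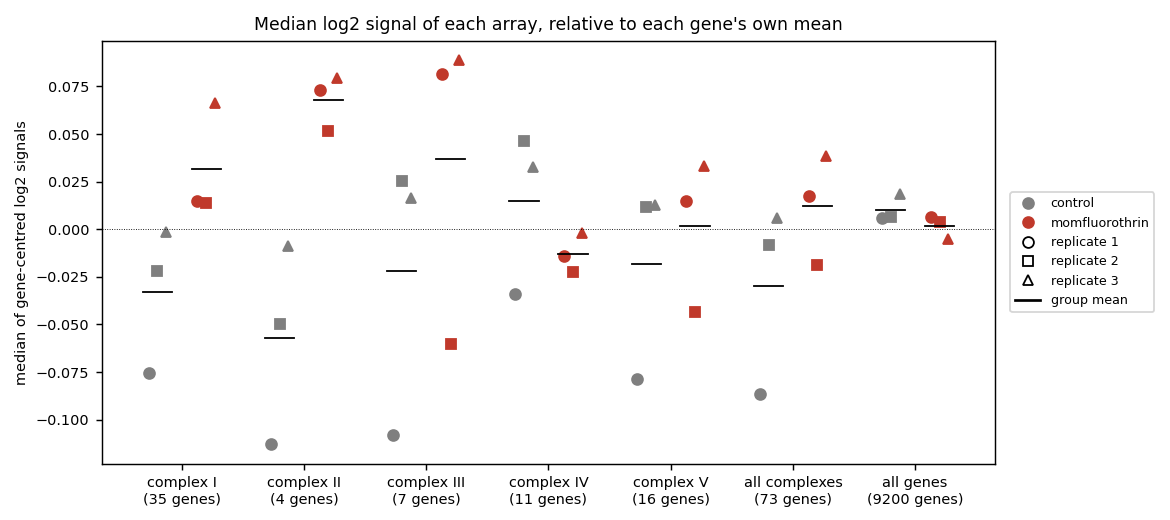
Median over genes of the gene-centred log2 signal, for each array and each complex, with all members and all tested genes beside them; colours are groups, marker shapes are replicates and lines are group means. At the deposited scaling, treated arrays lie above control arrays in complexes I and II and overlap with them in complexes III, IV and V, and control replicate 1 (grey circle) is lowest in every complex.

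The median difference of all genes varied with brightness, so the members are also given by range of signal; the part of brightness in their medians was not tested. For members whose mean signal lay between 1000 and 2000 the median log2 difference was 0.05 (33 genes, 23 above 0), beside 0.04 over all 386 genes of that range. Between 200 and 1000 it was 0.08 (18 members), beside 0.03 over 2506 genes, and between 2000 and 4000 it was 0.01 (15 members), beside 0.01 over 220 genes. Under 200 it was 0.13 over 6 members, beside -0.04 over 5941 genes, and the single member over 4000, Atp5mc3, had -0.07, beside -0.09 over 147 genes. These last 2 ranges hold too few members to read.

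**Figure D3:**
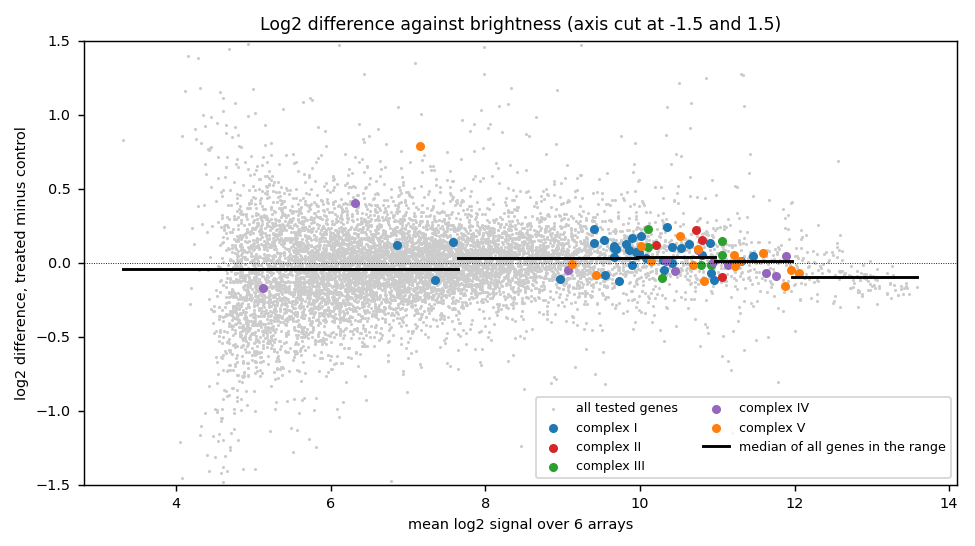
Log2 difference (treated minus control) against mean log2 signal for all 9200 tested genes (grey), with the members coloured by complex; black lines are the medians of all genes in 5 ranges of brightness. The members lie in a narrow band around those lines, apart from Atp5if1 at 0.79 and Cox5a at 0.40 among the dimmer probe sets.

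NRF1, the ETS factor GABP and YY1 are described regulators of respiratory chain genes, so the members' promoters were searched for their motifs. Promoters of 300 bases (250 before to 50 after the start, RefSeq, rat build GRCr8) were matched for 72 of the 80 members and 7735 of the genes tested. The 72 include Ndufa4l2, Cox6a2, Cox6b2, Cox7a1, Cox7b2 and Cox8b, which were too dim to be tested, so the sets are not alike in this. The NRF1 motif (GCGCA, 1 base of any kind, then GCGC, on either strand) stood in 13 of the 72 member promoters (18.1%), beside 10.9% of the promoters of the genes tested and 4.71% of all 27457 in the table. The ETS motif CCGGAAG stood in 20 (27.8%, beside 19.2% and 9.22%), and the YY1 motif (AA, 1 base of any kind, then ATGGCGGC) in 10 (13.9%, beside 3.24% of the genes tested and 329 of all promoters). The YY1 motif was found in 8 of 34 promoters of complex I, 1 of 4 of complex II and 1 of 6 of complex III, and in 0 of 13 of complex IV and 0 of 15 of complex V. In the same order of complexes, the NRF1 motif was found in 6, 1, 1, 0 and 5 promoters and the ETS motif in 7, 2, 3, 3 and 5. These counts are small, and no difference between complexes was tested. A TATA box (TATAAA, either strand) stood in 8 (11.1%, beside 6.85% and 14.3%). These are matches of letters in 1 window and no measure of binding. Each motif was searched on both strands and counted once per promoter, so a promoter can count for several motifs, and where the free base of the NRF1 motif is T the same letters match both strands.

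In complex I, 2 of 35 tested genes (5.71%, against 6.05% of all genes tested) were higher at an unadjusted p under 0.05 and 0 lower. Ndufb5, an accessory subunit of the membrane arm, read 1147, 1256 and 1200 on the control arrays (replicates 1 to 3, in this order throughout) and 1266, 1453 and 1561 on the treated arrays. The groups did not overlap, with the lowest treated array close to the highest control array, and the log2 difference was 0.24 ± 0.09 (SE, n = 3 per group, limma adjusted p = 0.387). Ndufa9, an accessory subunit next to the ubiquinone site, had 583, 640 and 661 on control and 687, 726 and 788 on treated arrays. Again every treated array was above every control array (log2 0.22 ± 0.09, limma adjusted p = 0.413). A further probe set of Ndufa9 was below the array median on every array and gives no level.

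The core subunits of complex I carry its flavin and iron-sulfur clusters, and 6 of them were measured by a probe set of their own. Ndufs7, which holds the cluster that hands electrons to ubiquinone, had 921, 968 and 1015 on control and 1024, 1110 and 1166 on treated arrays (log2 0.18 ± 0.08, limma adjusted p = 0.448). Ndufs1, the largest subunit of the NADH-oxidising module, had 588, 690 and 667 on control and 721, 711 and 692 on treated arrays (log2 0.13 ± 0.09). Ndufv1, which binds NADH and the flavin, had 768, 769 and 808 against 819, 851 and 842 (log2 0.10 ± 0.08). In these 3 of the 6 genes every treated array was above every control array, which held for 9.04% of all genes tested. Ndufs3 (0.11 ± 0.08), Ndufv2 (0.02 ± 0.11) and Ndufs8 (-0.11 ± 0.10) had overlapping groups, and the median over the 6 was 0.11, beside 0.06 over the 29 other tested genes of the complex. None of the 6 passed the threshold (adjusted p of at least 0.448 in limma).

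Among accessory subunits, the groups also lay apart for Ndufb4 (1832 ± 44.2 in control and 2007 ± 83.8 in treated livers, SD), Ndufs6 (1314 ± 52.6 and 1412 ± 32.3) and Ndufb3 (1758 ± 23.3 and 1824 ± 25.2). These are log2 differences of 0.13 ± 0.07, 0.10 ± 0.07 and 0.05 ± 0.07 (SE), none of which reached an unadjusted p of 0.05. Ndufa1, a small subunit needed to build the membrane arm, was the only member with all treated arrays below all controls, at 1957, 2133 and 2106 on control and 1902, 1932 and 1881 on treated arrays (log2 -0.12 ± 0.07, limma adjusted p = 0.566; 0.06 with median centring). Ndufa4, counted here by its name although its protein is now placed in cytochrome c oxidase, had 0.05 ± 0.07. Ndufv3 was read by a pair of probe sets that disagreed. The brighter one had 885 ± 62.4 in control and 812 ± 51.0 in treated livers (log2 -0.12 ± 0.09), and the dimmer one had 51.3, 62.4 and 34.8 on control and 84.7, 72.0 and 72.4 on treated arrays (log2 0.66 ± 0.22, limma adjusted p = 0.318).

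Complex II is the only one of the 5 that is also an enzyme of the citric acid cycle and has no subunit from mitochondrial DNA. Sdhb, its iron-sulfur subunit, had 1518, 1519 and 1690 on control and 1835, 1774 and 1905 on treated arrays. Every treated array was above every control array, and the log2 difference of 0.22 ± 0.08 fell short of the threshold (limma adjusted p = 0.338). Sdha, the flavin-bearing catalytic subunit, had 1665, 1639 and 1774 on control and 1859, 1838 and 1956 on treated arrays (log2 0.16 ± 0.07, limma adjusted p = 0.458). Sdhc, a membrane anchor, had 1088, 1206 and 1125 against 1261, 1242 and 1209 (log2 0.12 ± 0.08). The groups lay apart in these 3 of the 4 tested genes, where 9.04% of all genes tested stood apart upward. At an unadjusted p under 0.05 in limma, 1 of the 4 (Sdhb) was higher and 0 lower, beside 6.05% and 6.18% of all genes tested. Sdhd, the other anchor, had 2007, 2180 and 2489 on control and 2065, 2035 and 2106 on treated arrays (log2 -0.10 ± 0.09), and its second probe set -0.04 ± 0.10, with overlap in both. The intervals of the fold change were 1.03 to 1.32 for Sdhb and 0.994 to 1.25 for Sdha.

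The promoters of Sdha and Sdhb are shown as those of the catalytic subunits. Both have motifs, and their groups lay apart. Sdhc, whose groups lay apart, had 0 NRF1, ETS and YY1 motifs, and Sdhd, whose groups overlapped, had 2 ETS motifs. A link between motifs and separation of the groups was not tested. The window is from 250 bases before to 30 after the start, on the strand of the gene, with NRF1, ETS and YY1 motif letters in capitals. In Sdha (RefSeq, GRCr8, chr1:30764303-30764582, plus strand) the NRF1 motif occurs 3 times, with first bases at -89, -46 and -1 from the start. In Sdhb (GRCr8, chr5:158547684-158547963, plus strand) an ETS motif begins at -108 and a YY1 motif at 18.
Sdha: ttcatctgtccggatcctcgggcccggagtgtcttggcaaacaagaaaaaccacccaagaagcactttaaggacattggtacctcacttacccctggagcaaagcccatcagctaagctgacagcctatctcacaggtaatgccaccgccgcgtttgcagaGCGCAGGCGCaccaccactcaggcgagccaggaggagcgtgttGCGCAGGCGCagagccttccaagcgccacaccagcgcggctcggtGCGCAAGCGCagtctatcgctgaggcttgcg
Sdhb: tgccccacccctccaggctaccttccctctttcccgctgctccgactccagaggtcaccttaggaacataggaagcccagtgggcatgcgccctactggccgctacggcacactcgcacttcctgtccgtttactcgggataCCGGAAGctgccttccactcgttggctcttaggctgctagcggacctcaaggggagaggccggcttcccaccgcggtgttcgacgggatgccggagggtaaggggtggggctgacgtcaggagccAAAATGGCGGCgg

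In complex III, 1 of 7 tested genes was higher at an unadjusted p under 0.05 (background 6.05%). This was Uqcrc1, a core protein on the matrix side, with 941, 1034 and 1085 on control and 1203, 1142 and 1231 on treated arrays. The groups did not overlap, and the log2 difference was 0.23 ± 0.08 (limma adjusted p = 0.367). Uqcr10, a small subunit, had 1974, 2185 and 1973 against 2272, 2210 and 2290 (log2 0.14 ± 0.07), also without overlap. Uqcrc2, the partner core protein, had -0.02 ± 0.08 and its second probe set 0.16 ± 0.15. Uqcrfs1, the Rieske iron-sulfur protein, had -0.02 ± 0.08, and Uqcrh, Uqcrq and Uqcr11 had -0.11 to 0.11, with overlapping groups.

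The Uqcrc1 promoter (RefSeq, GRCr8, chr8:118467973-118468252, plus strand, same window and capitals) is shown as that of the complex III gene with the largest difference. It holds an NRF1 motif on the reverse strand at -64 and a YY1 motif that begins at -1.
Uqcrc1: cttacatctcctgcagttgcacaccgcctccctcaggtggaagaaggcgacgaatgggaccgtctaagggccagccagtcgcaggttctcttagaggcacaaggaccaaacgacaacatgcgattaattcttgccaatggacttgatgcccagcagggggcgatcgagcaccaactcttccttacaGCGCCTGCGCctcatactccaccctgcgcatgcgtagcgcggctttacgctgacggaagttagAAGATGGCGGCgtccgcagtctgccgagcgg

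In complex IV, 1 of 11 tested genes (9.09%, against 6.05% of all genes) was higher at an unadjusted p under 0.05 and 0 lower, and its bright subunits differed little. Cox4i1, the regulatory subunit that binds ATP, had 3787, 3730 and 3717 on control and 3814, 3838 and 3935 on treated arrays. The groups did not overlap, and the log2 difference was 0.04 ± 0.06 (limma adjusted p = 0.814). Cox5b had 0.0021 ± 0.09, Cox6b1 0.01 ± 0.08, Cox8a -0.02 ± 0.07 and Cox6a1 0.08 ± 0.09. The pseudogene Cox6c-ps1, a dim probe set, had -0.17 ± 0.24. Cox6c, Cox7b, Cox7c and Cox7a2l, a factor of supercomplex assembly, had -0.09 to -0.05, and the groups overlapped in each of these 9 genes. Cox5a was the gene at an unadjusted p under 0.05, through a dim probe set with 69.1, 63.2 and 76.6 on control and 74.8, 104 and 99.5 on treated arrays (log2 0.40 ± 0.16, limma adjusted p = 0.411, groups overlapping). A bright probe set annotated to Cox5a and a further locus had 2352, 2498 and 2475 against 2496, 2444 and 2481, a log2 difference of 0.02 ± 0.07.

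Several subunits of complex IV exist as tissue isoforms, and those of other tissues gave no usable signal. Cox6a2, Cox7a1 and Cox8b, the heart and skeletal muscle isoforms, Cox4i2, a lung isoform, Cox6b2, a testis isoform, and Cox7b2 stayed below the median of every array. Their signals ran from 0.585 for Cox8b to 27.3 for Cox7a1. The same held for Ndufa4l2, a paralog of Ndufa4, at up to 24.7. These are the 7 members that were not tested, and none had groups that lay apart.

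In complex V, 2 of 16 tested genes (12.5%, against 6.05% of all genes) were higher at an unadjusted p under 0.05. Atp5po, the stalk subunit that ties the catalytic head to the stator, had 1295, 1408 and 1419 on control and 1552, 1617 and 1496 on treated arrays (log2 0.18 ± 0.08, limma adjusted p = 0.426), with no overlap. The catalytic head itself differed little, with Atp5f1a, the alpha subunit, at 2496 ± 148 on control and 2516 ± 20.5 on treated arrays (log2 0.01 ± 0.07) and Atp5f1b, the beta subunit, at 4050 ± 310 and 3900 ± 171 (log2 -0.05 ± 0.08). Atp5pb, subunit b of the stator stalk, had the lowest difference of the complex at -0.16 ± 0.08 (limma adjusted p = 0.512, groups overlapping). The remaining 11 subunits lay between -0.12 and 0.11, each with overlapping groups.

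Atp5if1 matches the symbol rule but is no structural subunit. It encodes the inhibitory factor that binds the catalytic head of ATP synthase and blocks its ATP hydrolysis when the proton gradient falls. Its signals were 96.1, 113 and 116 on control and 181, 183 and 197 on treated arrays, so the lowest treated array was well above the highest control array. This is a 1.73-fold higher signal (95% interval 1.44 to 2.08), a log2 difference of 0.79 ± 0.12 with an adjusted p of 0.051 in limma, just short of the threshold. It had the largest difference of the 73 members, and the second largest was the 0.40 of Cox5a.

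That value belongs to 1 of 3 probe sets of Atp5if1, the brightest, and the other 2 were dim, near the array median. One had 22.7, 25.9 and 32.2 on control and 27.3, 48.7 and 36.4 on treated arrays (log2 0.45 ± 0.28, limma adjusted p = 0.572). This is a probe set of the type (suffix _x_at) whose probes can also bind other transcripts. The third had 32.8, 33.4 and 53.3 against 27.2, 36.0 and 34.1 (log2 -0.27 ± 0.26, limma adjusted p = 0.719). Both had overlapping groups. With the 3 averaged, the difference was 0.32 ± 0.19 (limma adjusted p = 0.537). The call of the brightest probe set was made under 4 of the 14 other settings, namely a stricter filter, set at the 70th percentile (adjusted p = 0.044), quantile normalization (0.0441), median centring (0.0181) and a pseudocount of 16 (0.044), all in limma. With 1 array left out the difference stayed between 0.71 and 0.84 and the adjusted p between 0.0731 and 0.190 in limma.

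**Figure D4:**
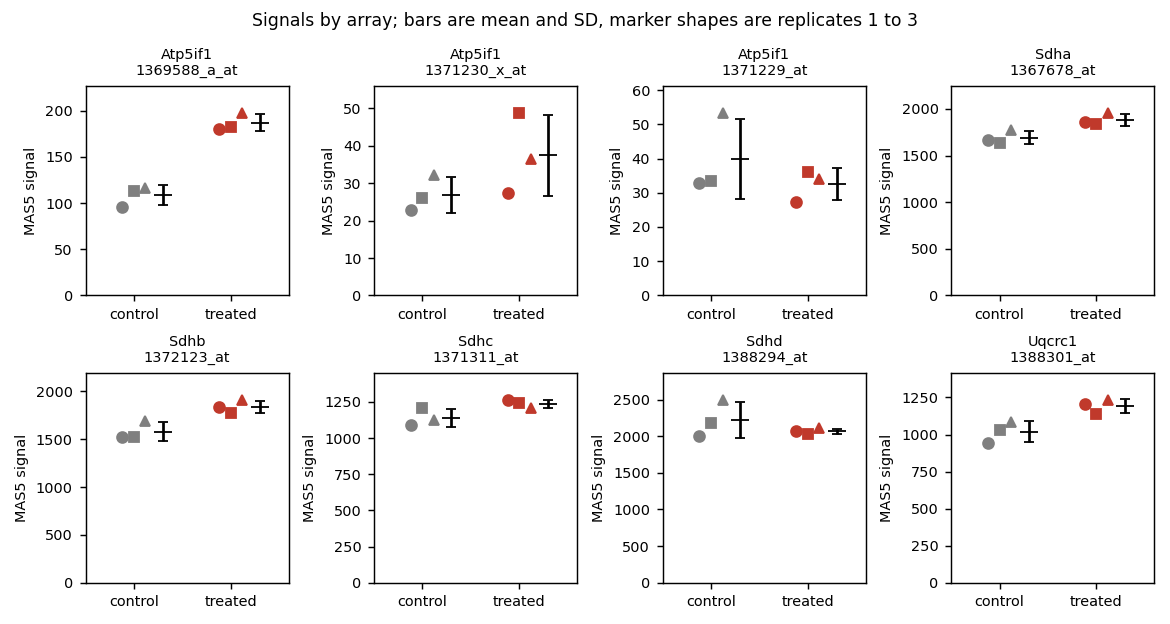
MAS5 signal by array for the 3 probe sets of Atp5if1, the 4 genes of complex II and Uqcrc1; points are arrays (shapes are replicates), bars are mean and SD of 3 arrays, and each axis starts at 0. The groups lie apart for the brightest Atp5if1 probe set (96.1 to 116 against 181 to 197), Sdha, Sdhb, Sdhc and Uqcrc1, and overlap for the other Atp5if1 probe sets and Sdhd.

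The Atp5if1 promoter (RefSeq, GRCr8, chr5:150026648-150026927, minus strand, same window) is shown because this gene had the largest difference. None of the 3 motifs was found in its letters, so none are in capitals.
Atp5if1: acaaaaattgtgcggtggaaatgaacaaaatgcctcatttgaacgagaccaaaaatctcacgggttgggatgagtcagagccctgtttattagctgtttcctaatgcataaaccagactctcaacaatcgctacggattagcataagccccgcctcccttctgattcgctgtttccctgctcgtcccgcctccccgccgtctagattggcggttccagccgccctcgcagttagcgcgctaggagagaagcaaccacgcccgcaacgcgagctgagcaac

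**Figure D5:**
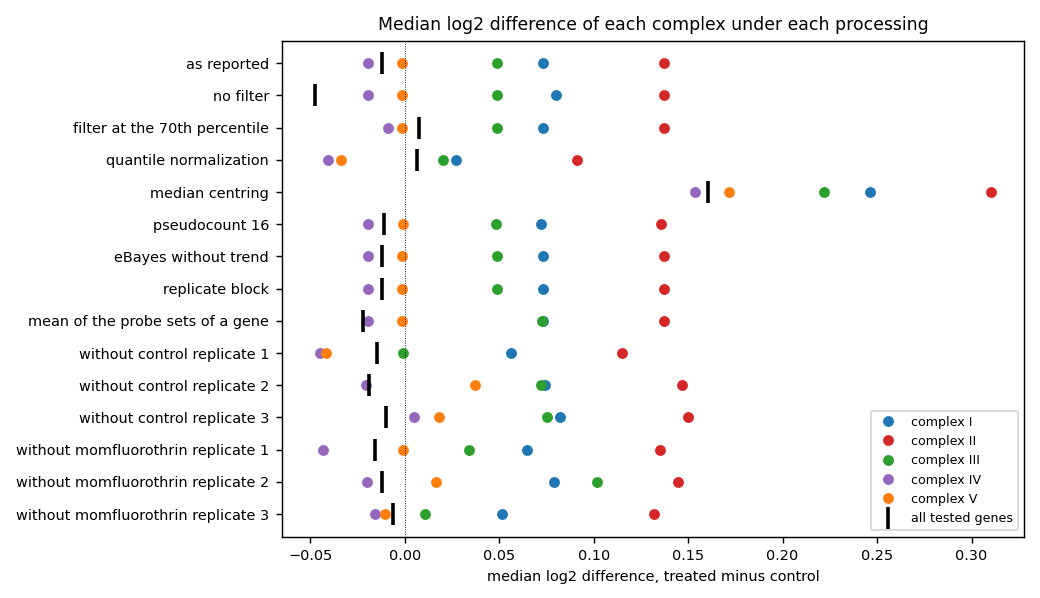
Median log2 difference (treated minus control) of each complex and of all tested genes, as reported and under 14 other settings. Median centring moves complexes and all genes up together, complex II stays highest and complex IV lowest under every setting shown, and complexes III, IV and V change side of 0 between settings. Median centring, the variance model and the replicate block could not change the order of the complexes.

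The catalytic subunits that mitochondrial DNA encodes were read by 1 probe set each for COX1 and COX2 of complex IV, as the platform annotation names them. COX1 had 11988, 13244 and 11774 on control and 9620, 11152 and 11232 on treated arrays (log2 -0.21 ± 0.08, limma adjusted p = 0.389). COX2 had 11247, 12614 and 11583 against 10455, 10540 and 10802 (log2 -0.16 ± 0.07, limma adjusted p = 0.423). In both, every treated array lay below every control array, but this depends on the scaling: with median centring the differences were -0.04 and 0.02, and with quantile normalization -0.02 and 0.0091. Both belong to the range over 4000, where the median of all genes was -0.09 and 21.8% of 147 genes were above 0, and the part of brightness in this difference was not tested.

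Genes that work beside the complexes also gave no call at an adjusted p under 0.05 in limma. Their counts at an unadjusted p under 0.05 are to be read against 6.05% of all genes tested higher and 6.18% lower. Of 41 tested assembly factors, 3 were higher at an unadjusted p under 0.05 and 0 lower (median 0.03). Foxred1, a complex I assembly factor, had 0.46 ± 0.13 (limma adjusted p = 0.268), and Sdhaf4, which serves the assembly of complex II, had 133, 142 and 140 on control and 168, 176 and 157 on treated arrays (log2 0.27 ± 0.10, limma adjusted p = 0.385). Among 16 electron carriers and enzymes that feed ubiquinone, 3 were higher and 1 lower (median -0.01). The lower gene was Gpd2, at -0.62 ± 0.26 (limma adjusted p = 0.423, groups overlapping). Sqor, the mitochondrial sulfide oxidase, had 783, 847 and 874 on control and 996, 1136 and 1630 on treated arrays (log2 0.56 ± 0.16, limma adjusted p = 0.264), and Coq6, of ubiquinone synthesis, had 0.36 ± 0.15. Cyc1, the cytochrome c1 subunit of complex III, is in this list only because its symbol falls outside the membership rule, and had -0.01 ± 0.09.

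Among 16 genes of pyruvate dehydrogenase and the citric acid cycle, 4 were higher and 1 lower at an unadjusted p under 0.05 (median 0.0083). Pdha1, a catalytic subunit of pyruvate dehydrogenase, had 672, 681 and 701 on control and 862, 910 and 914 on treated arrays (log2 0.39 ± 0.08, limma adjusted p = 0.127). Idh2, the NADP-dependent mitochondrial isocitrate dehydrogenase, had 387, 478 and 634 against 717, 757 and 743 (log2 0.59 ± 0.16, limma adjusted p = 0.227). Pc, pyruvate carboxylase, had -0.40 ± 0.15. The groups lay apart upward for 7 of the 16 and downward for 1, where the shares over all genes tested were 9.04% and 9.23%.

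Carriers of ADP, ATP and phosphate had 0 of 6 tested genes at an unadjusted p under 0.05 in limma (median 0.04), with Vdac3, an outer membrane channel, at 0.10 ± 0.08 and Vdac1 at 0.06 ± 0.08. Of 17 regulators of mitochondrial gene expression 0 were at that level (median -0.03), and the smallest p was that of Polg2, the accessory subunit of the mitochondrial DNA polymerase (0.29 ± 0.15, limma adjusted p = 0.482). The coactivator gene Ppargc1a had 0.10 ± 0.19, Tfam, which packages mitochondrial DNA, 0.14 ± 0.10, Gabpa -0.03 ± 0.10 and Esrra -0.10 ± 0.19. Nrf1, near the array median at 35.3 ± 5.64 on control and 24.9 ± 6.27 on treated arrays (SD), had -0.52 ± 0.27 (limma adjusted p = 0.498, groups overlapping). Of 8 tested genes of uncoupling and mitochondrial antioxidant defence 0 were at that level (median 0.03), with Txnrd2, a mitochondrial thioredoxin reductase, at 0.17 ± 0.12 and Prdx3 at 0.12 ± 0.09, and Ucp1 did not exceed the array median. The 73 mitochondrial ribosomal protein genes, all tested, had a median of 0.07 with 52 above 0 (47.5% over all genes tested), and 7 higher and 1 lower at that level. Mrpl27 had 0.33 ± 0.10 and Mrps5 0.39 ± 0.13 (limma adjusted p = 0.270 and 0.309). Set beside them, the 73 oxidative phosphorylation genes had a median of 0.05 with 46 above 0, and no difference between both sets was tested.

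Markers of the cells in the sample had the following values beside these, and their part in them was not tested. The summed signal of 5 hepatocyte markers was 33658 to 38828 in control and 30970 to 34649 in treated livers. In log2 difference 1 of the 5 was above 0. At an unadjusted p under 0.05 in limma 1 was lower (Cps1, -0.20 ± 0.07), beside 6.18% of all genes tested. The groups lay apart downward for Cps1 and Ttr, beside 9.23% of all genes tested. Alb, Ttr, Apoa1 and Cps1 had signals over 4000, where the median of all genes was -0.09 and 21.8% of 147 genes were above 0. The part of brightness in these differences was not tested. The summed signal was 788 to 975 and 739 to 816 for 4 Kupffer cell markers, 642 to 888 and 689 to 748 for 5 stellate cell markers, and 1089 to 1417 and 1347 to 1436 for 4 endothelial markers. The sums of these 4 lists overlapped between the groups. Single markers within them differed more: Eng (-0.45 ± 0.12) and Lyve1 (0.31 ± 0.14), both endothelial and with groups apart, lay on opposite sides, and Clec4f of Kupffer cells had -0.33 ± 0.13, with overlap. These 3 and Cps1 were at an unadjusted p under 0.05 in limma, with adjusted p of 0.222, 0.429, 0.419 and 0.338. It was 3959 to 4192 and 3479 to 5194 for 3 blood markers. For 3 cholangiocyte markers it was 87.6 to 111 and 143 to 167, which rests on Epcam (0.63 ± 0.16, limma adjusted p = 0.220), since Krt7 and Krt19 were not tested. For 3 brown fat markers it was 120 to 238 and 312 to 554: Ucp1 and Adipoq were below the array median on all arrays and Cidea had 1.46 ± 0.27 (limma adjusted p = 0.107).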

How the data were processed

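Liver RNA of 6 rats was measured on 1-colour arrays, 1 per animal, in 2 groups of 3. The deposited values are linear intensities (signals) made by the authors with MAS5, per the submitters' processing notes; the sources used here name no version and no settings. From the values, every array had a trimmed mean of 100.0 (2% left out at each end), so no further scaling was applied. Of 31099 probe sets, 57 controls were left out, and 15778 were kept with a signal above the array median on at least 3 of 6 arrays. Each gene was represented by the brightest (mean log2) of its kept probe sets that carry 1 symbol in GEO's platform annotation, which gave 9200 genes. Probe sets with several symbols name no gene.

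The 2-sided test was that of limma 3.58.1 (R 4.3.3; lmFit and eBayes, prior variance following intensity) on log2 signals. P-values were adjusted by Benjamini and Hochberg's method across every probe set that was kept, and 0.05 was the threshold. "Apart" means that all 3 arrays of one group lie beyond all 3 of the other. The fit was tested on simulated data. Settings changed the filter, scaling, pseudocount, variance model, probe set rule and replicate block, and left out each array in turn. Members of each list, tests and settings were chosen with earlier results of these data known. Member genes named are those at an unadjusted p under 0.05 or with groups apart, the 2 largest differences per complex, tissue isoforms with their partners, and core subunits. In other lists the genes named are the 2 with the smallest p, plus named regulators and a few further genes such as Gpd2 and Pc. The labels call the animals biological replicates and give no batch. The number of arrays limits the precision.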

Additional observations from a re-analysis of the deposited data

How the results depend on the processing

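Of 433 values of the 31 named genes under 14 other settings, 401 kept their direction and their side of the adjusted threshold, 4 (Atp5if1) passed it, and 28, over 11 genes, changed sign, all at a limma adjusted p of at least 0.519. Changes of filter, variance model and replicate block left the log2 differences of these genes as they were, so they could not change a sign. Quantile normalization turned Atp5f1a to -0.0068, Cox5b to -0.030, Cox6b1 to -0.041 and Ndufv2 to -0.044. Median centring turned Atp5f1b to 0.12, Cox6c-ps1 to 0.0032, Cox8a to 0.15, Ndufa1 to 0.057, Ndufs8 to 0.062, Uqcrc2 to 0.16 and Uqcrfs1 to 0.16, and averaging probe sets turned Uqcrc2 to 0.073. Leaving out an array turned 16 values, in genes whose range was -0.029 to 0.057 for Atp5f1a, -0.090 to 0.0096 for Atp5f1b, -0.060 to 0.069 for Cox5b, -0.026 to 0.043 for Cox6b1, -0.045 to 0.020 for Cox8a, -0.056 to 0.099 for Ndufv2, -0.076 to 0.012 for Uqcrc2 and -0.052 to 0.029 for Uqcrfs1. The count of members past the adjusted threshold was 1 in place of 0 under the filter at the 70th percentile, quantile normalization, median centring and a pseudocount of 16. The count higher at an unadjusted p under 0.05 was 4 with quantile normalization (1 lower), 22 with median centring, 2 without an intensity trend, and 1 to 8 with an array left out (0 to 1 lower), in place of 7 (0 lower). Of all genes tested, 6.35%, 15.7%, 4.77% and 4.21% to 6.12% were higher in these fits, in place of 6.05%. Median centring gave medians of 0.22 for all complexes and 0.25, 0.31, 0.22, 0.15 and 0.17 for complexes I to V, and quantile normalization gave 0.027 for complex I and 0.091 for complex II. The replicate block gave 6 members higher (beside 5.74% of all genes tested) and 0 lower at an unadjusted p under 0.05, and an adjusted p of 0.110 for Atp5if1 in limma. Deviations from the group means correlated at -0.10, 0.10 and -0.06 between animals of the same number (1 to 3). The highest correlation of the same control animals with a treated animal of another number was 0.15, -0.03 and 0.13. With 3 animals per group, these values cannot decide whether the numbers pair the animals. Dim probe sets such as those of Cox5a, Ndufv3 and Atp5if1 limit what can be said of these genes.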

Other observations

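Probe sets annotated to a member and a further locus were not used for any gene, and 7 were kept by the filter. The probe set of Ndufa10 and Ndufa10l1 had 179, 178 and 167 on control and 192, 263 and 224 on treated arrays (log2 0.36 ± 0.13, SE, limma adjusted p = 0.348). That of Ndufs5 and a pseudogene had 1054, 950 and 951 against 1098, 1124 and 1187 (log2 0.21 ± 0.08, limma adjusted p = 0.390). In both, every treated array was above every control array, which held for 9.04% of all genes tested. Both were at an unadjusted p under 0.05 in limma, where 6.05% of all genes tested were higher. The probe sets of Atp5mc1 (0.03 ± 0.09), Atp5mc2 (-0.11 ± 0.14), Uqcrb (0.03 ± 0.07), Cox7a2 (-0.0034 ± 0.07) and Cox5a (0.02 ± 0.07), each with a further locus, had overlapping groups. The loci that share a probe set cannot be told apart.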
